A study of Drosophila melanogaster with 20 samples.

Results

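Lowering the kinase ATM in glia was measured in whole heads of adult Drosophila melanogaster by setting 2 Repo-ATMi samples against 2 Repo-GAL4 samples. These 4 samples were chosen by their titles from the 20 in the study, and all 15473 transcripts on the array were analysed in each. Repo-ATMi flies carried the driver Repo-GAL4 over the transgene UAS-RNAiATM on one pair of chromosomes (Repo-GAL4/UAS-RNAiATM), and Repo-GAL4 flies carried the same driver over a chromosome without the transgene (Repo-GAL4/+). Both genotypes were in the w1118 background, were kept at 25°C and were aged 4 to 6 days, and neither carried other alleles according to the labels. The controls lacked the RNA interference transgene, so knockdown and presence of that transgene cannot be told apart. The other genotypes, used below for contrast, were ATM8 homozygotes and ATM8/+ heterozygotes (pp e1 background, reared at 18°C and then held for 3 days at 25°C; 2 samples each), Elav-ATMi and Elav-GAL4 (4 samples each), and ElavC155-ATMi and ElavC155-GAL4 (2 samples each). The last 4 of these were in the w1118 background with the RNA interference transgene and its driver in neurons, or with that driver alone. Like the Repo flies, they were kept at 25°C and aged 4 to 6 days.

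ATM is a protein kinase that is activated at DNA double-strand breaks and signals to the checkpoint and repair machinery, and its fly gene is tefu, which is also known for protecting telomeres. In people, loss of ATM causes ataxia-telangiectasia, a disease with loss of cerebellar neurons. Repo is a transcription factor of nearly all glia, the support cells of the nervous system, and the GAL4 protein made under its control switches on any transgene that carries UAS sites. The comparison addresses which transcripts of the head differ between flies with the glial knockdown and flies with the driver alone. Heads also contain neurons, eyes, fat body, muscle and blood cells, so a change in the level of a transcript in head RNA cannot be told apart from a change in the number of cells that make it.

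Each transcript is known here by its FlyBase number, and the gene table at hand tied 44 of the 15473 (0.284%) to genes, 17 to a single gene and 27 to several genes that share a transcript. Of 494 entries in 24 gene lists, among them antimicrobial peptides, Imd and Toll pathway members, stress genes and markers of glia, neurons, photoreceptors, fat body and blood cells, 0 had a row that could be tied to them. The level of tefu, the efficiency of the knockdown and the cell types in the heads were therefore not analysed here, and no sequence is shown.

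Levels are log2 RMA values, in which 1 unit is a 2-fold difference. The 4 arrays had closely similar distributions, with medians from 10.45 to 10.52. The 2 Repo-ATMi arrays differed from each other by a median of 0.194 log2 units and by at least 2-fold for 234 transcripts (1.51%). The 2 Repo-GAL4 arrays differed by a median of 0.142 and by at least 2-fold for 96 transcripts (0.62%). Across the 4 possible pairs of a Repo-ATMi and a Repo-GAL4 array the median difference was 0.205 to 0.252, and 494 to 839 transcripts (3.19% to 5.42%) differed by at least 2-fold. Every pair that crossed the genotypes thus differed more than either pair within a genotype, and Repo-ATMi replicate 1 stood farther from both controls than replicate 2 did. In pairs of arrays that share none (Repo-ATMi 1 minus Repo-GAL4 1, and Repo-ATMi 2 minus Repo-GAL4 2), the differences of the 15473 transcripts correlated at r = 0.514 (Spearman's rho = 0.391), and at r = 0.607 (rho = 0.48) with the controls exchanged. Transcripts are not independent replicates, and these values only describe the 4 arrays. In the first pairing 201 transcripts were at least 2-fold higher in both pairs, 74 at least 2-fold lower in both, and 20 passed 2-fold in opposite directions.

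With glial knockdown, 658 transcripts changed (4.25% of those tested, limma with Benjamini-Hochberg adjusted p under 0.05), 451 upward (2.91%) and 207 downward (1.34%). Among the transcripts past the threshold, rises had a larger median size than falls, a difference that was not tested. Their median standard error was 0.193 for rises and 0.173 for falls. The median rise was 0.95 on the log2 scale with quartiles of 0.71 and 1.45, while the median fall was -0.83, with quartiles of -1.17 and -0.68. Over all transcripts the median was -0.02 and the quartiles were -0.20 and 0.18. The lowest value of all, -4.695, did not pass the threshold. RMA aligns the distributions of the arrays, so a shift of all transcripts together could not have been seen. With a minimum of 1.5-fold added, 601 (3.88%) passed, and 16 of the rises and 3 of the falls were of at least 8-fold. For all 658 both Repo-ATMi arrays lay on one side of both Repo-GAL4 arrays, which was also the case for 50.8% of all transcripts. With 2 arrays per genotype, fewer transcripts passed whichever of the 4 Repo arrays was left out. Such a fit leaves 1 array in a genotype, which widens the standard error. A lower count therefore does not single out an array.

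**Figure D1:**
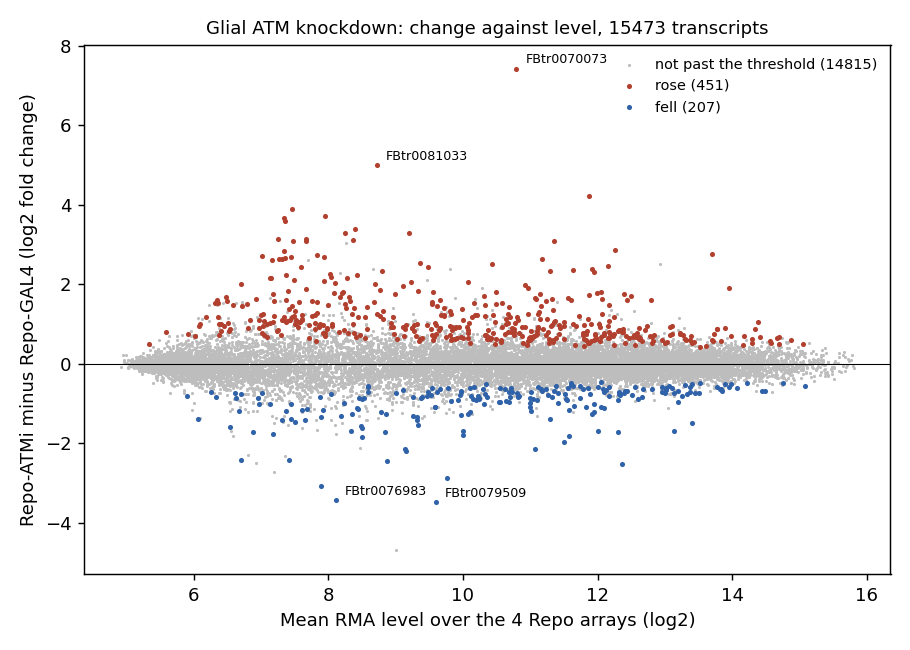
Log2 fold change (Repo-ATMi minus Repo-GAL4, vertical axis) of each of the 15473 transcripts against its mean RMA level over the 4 Repo arrays (log2, horizontal axis). Red points are the 451 that rose, blue points the 207 that fell and grey points the rest, and the 4 transcripts described by name are marked. Red points reach farther from 0 than blue ones.

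Of the 451 rises, 130 passed the threshold in each of the 4 fits that left out 1 Repo array, and 121 passed in none of them. Of the 207 falls, 43 passed in all 4 fits, and 69 in none. The 173 transcripts that passed in all 4 had a median size of 1.53 on the log2 scale, against 0.80 for those that passed in fewer.

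The largest rise was that of FBtr0070073, at a level of 14.43 and 14.58 with glial knockdown (Repo-ATMi), against 8.23 and 5.93 with the driver alone (Repo-GAL4). Both Repo-ATMi samples were near the top of the range of their arrays, and the controls differed from each other by over 2 log2 units. The log2 fold change was 7.43 ± 0.64 (SE, n = 2 each, limma adjusted p = 3e-06). This transcript also stood at 13.59 ± 0.285 in Elav-ATMi samples and 5.83 ± 0.979 in Elav-GAL4 samples (SD, n = 4 each). It stood at 14.27 ± 0.094 in ElavC155-ATMi samples and 5.34 ± 0.343 in ElavC155-GAL4 samples (SD, n = 2 each). All 8 samples with the RNA interference transgene were therefore above 13, while the 12 others lay between 5.02 and 8.23. The difference between the glial and the Elav effect was -0.33 ± 0.78 (adjusted p = 0.92), and between the glial and the ElavC155 effect -1.50 ± 0.90 (adjusted p = 0.60).

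FBtr0081033 had levels of 11 and 11.44 in Repo-ATMi samples, against 6.10 and 6.33 in Repo-GAL4 samples. It was 32.1-fold higher, with a standard error of 0.44 on the log2 scale (limma adjusted p = 3.5e-06). Its level in every other genotype was dim: the means of the 6 other genotypes lay between 5.65 and 6.55, and the Repo-ATMi samples were the only ones above 8. Its glial effect exceeded the effect of ATM8 by 4.81 ± 0.62 (adjusted p = 0.00038), that of the Elav driver by 5.20 ± 0.53 (adjusted p = 4.9e-05) and that of the ElavC155 driver by 5.39 ± 0.62 (adjusted p = 0.00018).

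FBtr0079509 fell the most of the transcripts past the threshold. Its levels were 8.19 and 7.51 in Repo-ATMi samples, against 11.37 and 11.31 in Repo-GAL4 samples, which is -3.49 ± 0.28 as a log2 fold change (SE, adjusted p = 1.6e-06 in limma). The means in the other 6 genotypes ran from 9.98 to 11.95, so the low level belonged to the Repo-ATMi samples. The difference from the other 3 effects was -3.25 ± 0.34 for Elav (adjusted p = 5e-05), -3.26 ± 0.39 for ATM8 (adjusted p = 0.00018) and -3.88 ± 0.39 for ElavC155 (adjusted p = 5.5e-05).

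FBtr0076983 showed another pattern. It had levels of 5.37 and 7.41 in Repo-ATMi samples, against 9.47 and 10.19 in Repo-GAL4 samples, which is -3.44 ± 0.78 as a log2 fold change (SE, adjusted p = 0.018 in limma). Here the Repo-GAL4 samples were the high ones: ATM8, ATM8/+, ElavC155-ATMi, ElavC155-GAL4 and Elav-GAL4 samples averaged 5.07 to 5.84, while the Elav-ATMi samples, at 6.54 to 9.93, and Repo-ATMi replicate 2, at 7.41, were also above that range. The call was lost when Repo-GAL4 replicate 1 (adjusted p = 0.067), Repo-GAL4 replicate 2 (adjusted p = 0.16) or Repo-ATMi replicate 1 (adjusted p = 0.24) was left out.

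**Figure D2:**
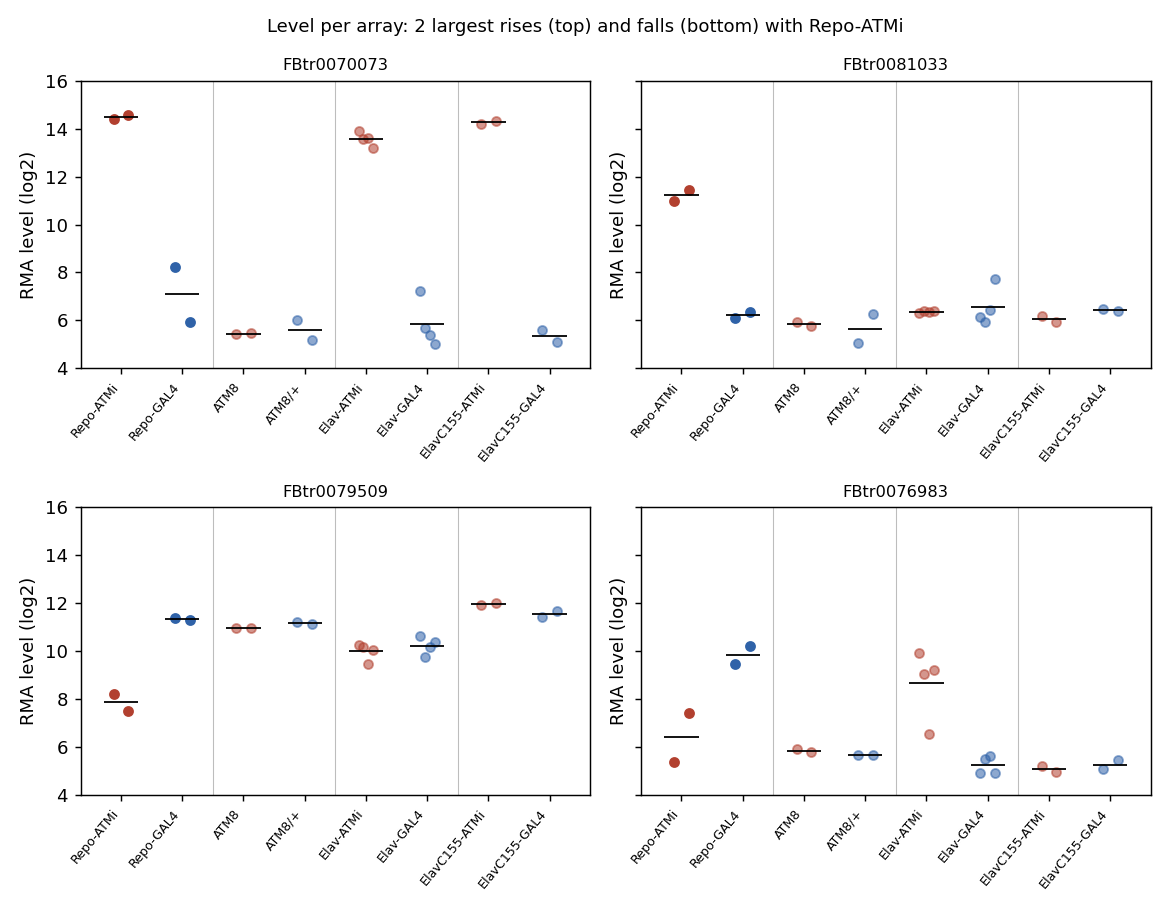
RMA level (log2, vertical axis) in each of the 20 arrays, by genotype (horizontal axis), for the 2 largest rises (top) and the 2 largest falls (bottom) with Repo-ATMi. Points are arrays, with red for ATM-lowered and blue for control genotypes, and lines are means. FBtr0070073 is high in every genotype with the RNA interference transgene, FBtr0081033 and FBtr0079509 depart in Repo-ATMi samples alone, and FBtr0076983 is high in Repo-GAL4 samples and in 3 of 4 Elav-ATMi samples.

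The 12 largest rises spanned 3.13 to 7.43 on the log2 scale, with mean levels from 8.83 to 14.51 in Repo-ATMi samples and from 5.51 to 9.76 in Repo-GAL4 samples. Of these, 11 passed the threshold in all 4 fits that left out 1 Repo array. The sizes of the 12 largest falls spanned 1.96 to 3.49, with means of 5.49 to 11.10 in Repo-ATMi samples and 7.92 to 13.62 in Repo-GAL4 samples, and 4 of them passed in all 4 such fits. More of the largest rises than of the largest falls thus passed in all 4 fits. The rises also spanned larger sizes, so the 2 counts do not compare rises and falls of equal size. They were not tested against each other.

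The levels of rises and falls are given as a description, since the calls were made from the same arrays and a low control level itself favours a rise. The median level of the rises was 10.71 in Repo-ATMi samples and 9.60 in Repo-GAL4 samples, while that of the falls was 10.33 in Repo-ATMi samples and 11.17 in Repo-GAL4 samples. Of the 451 rises, 114 (25.3%) were below the lower quartile of both Repo-GAL4 arrays, close to the 23.9% of all transcripts, and 159 (35.3%) were above the median of both, against 48.9% of all. Of those 114, 1 was above the median of both Repo-ATMi arrays. Of the 207 falls, 128 (61.8%) started above the median of both control arrays, and 0 of these 128 dropped below the lower quartile of both Repo-ATMi arrays.

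Transcripts were then grouped by their mean level in the 16 arrays outside the Repo comparison, which do not enter the fold change but do enter the estimate of its error. They were cut into 4 bins of about equal size. The second bin from the dimmest, with levels of 7.70 to 10.81, held the most changes, 181 rises and 63 falls (6.31% of its transcripts). The dimmest bin held 72 rises and 26 falls (2.53%), the third 122 and 58 (4.65%), and the brightest 76 and 60 (3.52%). Rises made up 73.5% of the changes in the dimmest bin and 55.9% in the brightest. Rises of at least 4-fold numbered 22 in each of the 2 dimmer bins, 6 in the third and 2 in the brightest. The spread between Repo replicates was also widest in the second bin. Its median SD was 0.192 in Repo-ATMi and 0.129 in Repo-GAL4 samples, against 0.106 and 0.083 in the brightest. The standard error used in the test, which draws on all arrays, was widest in the dimmest bin. Its median was 0.238 there, 0.224 in the second bin and 0.16 in the brightest. RMA levels carry no detection flag, so the fold changes of dim transcripts have no measured floor.

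**Figure D3:**
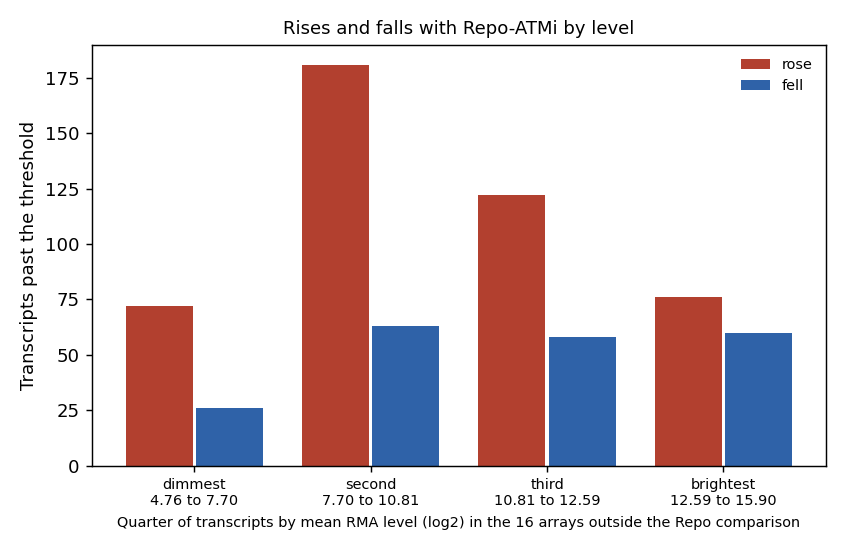
Number of transcripts that rose (red) or fell (blue) with Repo-ATMi (vertical axis), in 4 bins of all transcripts by their mean RMA level in the 16 arrays outside the comparison (horizontal axis, range of log2 levels under each bin). The second bin holds 181 rises and 63 falls, the most of the 4.

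None of the 44 transcripts tied to genes changed with glial knockdown (0 in limma, against 4.25% of all transcripts). An unadjusted p under 0.05 was reached by 9 of the 44, against 17.1% of all transcripts. The groups did not overlap for 22 of the 44, near the 50.8% of all. Their log2 fold changes ran from -0.48 to 0.89 with a median of -0.04, and 31 lay within 0.25 of 0. The standard errors were 0.12 to 0.35. These 44 are not a sample of the genome: the table names a FlyBase transcript mostly where 2 reading frames share it, and the genes of a shared transcript cannot be told apart here.

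Among genes of genome maintenance, the transcript shared by Rad1, a subunit of the checkpoint clamp loaded at damaged DNA, and Sws1 had levels of 7.87 and 7.95 in Repo-ATMi samples, against 7.96 and 7.95 in Repo-GAL4 samples. The transcript of moi, a telomere-capping protein, and Tgs1, an enzyme that modifies the cap of small RNAs, had levels of 11.58 and 11.54 in Repo-ATMi samples, against 11.32 and 11.34 in Repo-GAL4 samples (log2 fold change 0.23 ± 0.16, limma adjusted p = 0.53). That of Tfb5, a subunit of the repair and transcription factor TFIIH, and CG31917 was at -0.05 ± 0.25 as a log2 fold change (adjusted p = 0.96). The groups overlapped for the Rad1 and Tfb5 transcripts and lay apart, by less than 0.3 log2 units, for the moi transcript.

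Among chromatin genes, HDAC3, a histone deacetylase, had levels of 11.45 and 10.79 in Repo-ATMi samples, against 11.48 and 11.60 in Repo-GAL4 samples. Its log2 fold change of -0.42 (adjusted p = 0.26) came mostly from Repo-ATMi replicate 2. kis, a chromatin remodeller, had levels of 13.72 and 13.83 in Repo-ATMi samples, against 14.07 and 14.11 in Repo-GAL4 samples (-0.31 ± 0.17, limma adjusted p = 0.36). SuUR, a protein of late-replicating heterochromatin, and His4r, a histone H4 gene, had log2 fold changes of -0.23 ± 0.15 (adjusted p = 0.49) and -0.16 ± 0.27 (adjusted p = 0.84).

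mio and Wdr24 encode partners in GATOR2, a complex that keeps the growth kinase complex TORC1 active when amino acids are present. mio had levels of 11.06 and 11.14 in Repo-ATMi samples, against 11.16 and 11.52 in Repo-GAL4 samples, and Wdr24 had 12.21 in both Repo-ATMi samples, against 11.89 and 11.98 in Repo-GAL4 samples. The mio samples lay below their controls and the Wdr24 samples above theirs, and neither change passed the test (adjusted p = 0.56 for mio and 0.28 for Wdr24).

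Of genes of lipid and membrane biology, Fatp1, a fatty acid transport protein, had levels of 12.94 and 13.55 in Repo-ATMi samples, against 13.73 and 13.72 in Repo-GAL4 samples. The shortfall was mostly that of Repo-ATMi replicate 1, and the log2 fold change of -0.48 had an adjusted p of 0.24 in limma. LanA, a laminin chain of basement membranes, and alpha-Spec, a chain of the spectrin skeleton under the cell membrane, had log2 fold changes of 0.11 ± 0.21 and 0.05 ± 0.14 (adjusted p = 0.87 and 0.92). The transcripts that hold PIG-M and PIG-P, enzymes of the anchor that ties proteins to the outer face of the cell membrane, were at 0.05 ± 0.13 and -0.05 ± 0.19 (adjusted p = 0.91 and 0.94).

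In protein turnover, Uba1, the enzyme that activates ubiquitin, had levels of 14.34 in both Repo-ATMi samples, against 14.25 and 14.39 in Repo-GAL4 samples. rdx, a substrate adaptor of a ubiquitin ligase, was at 0.06 ± 0.18 as a log2 fold change (limma adjusted p = 0.93). The transcript of lmgA and lmgB, the locus of a subunit of the anaphase-promoting complex, had levels of 12.39 and 12.27 in Repo-ATMi samples, against 12.13 and 11.79 in Repo-GAL4 samples (0.37 ± 0.16, adjusted p = 0.25). Of 2 transcripts with mitochondrial genes, that of Tim10, an import chaperone, was at 0.21 ± 0.18 as a log2 fold change (adjusted p = 0.64) and that of ND-MNLL, a subunit of respiratory complex I, -0.14 ± 0.18 (adjusted p = 0.78).

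The highest fold change of the 44 was that of the transcript shared by CG32573 and CG42512, with levels of 10.99 and 11.01 in Repo-ATMi samples, against 9.94 and 10.27 in Repo-GAL4 samples. Its log2 fold change was 0.89 ± 0.32 (SE, limma adjusted p = 0.15), and it passed under 3 other settings: in a fit of the 4 Repo arrays (adjusted p = 0.049), in one of the 8 Repo and ATM8 arrays (0.028) and with array weights (0.039). The next was the transcript of CG42375 and CG9288, at 13.12 and 12.90 in Repo-ATMi samples, against 12.53 and 12.45 in Repo-GAL4 samples (0.52 ± 0.19, adjusted p = 0.14). On the lower side, Fatp1 and HDAC3, given above, had the lowest fold changes of the 44. The transcript of CG45085 and CG8026 was at 11.77 and 11.74 in Repo-ATMi samples, against 12.14 and 12.16 in Repo-GAL4 samples (-0.40 ± 0.16, adjusted p = 0.21). That of CG10570 and CG42502 was at 14.80 and 14.65 in Repo-ATMi samples, against 15.09 and 15.10 in Repo-GAL4 samples (-0.37 ± 0.14, adjusted p = 0.18). In these 4 the groups did not overlap, yet none passed over all transcripts.

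**Figure D4:**
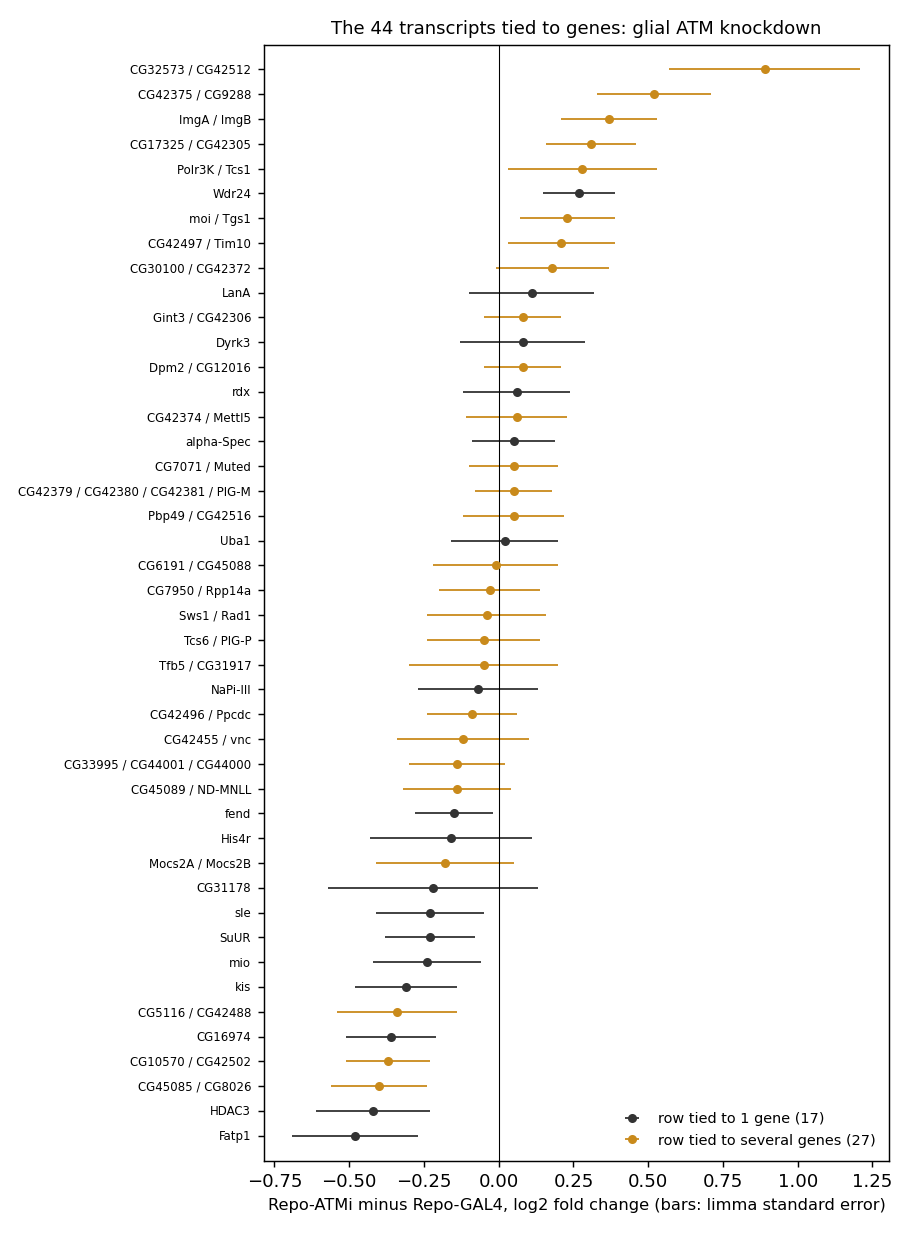
Log2 fold change (Repo-ATMi minus Repo-GAL4, horizontal axis) of the 44 transcripts that could be tied to genes (vertical axis), with bars for the standard error from limma. Dark points are the 17 rows tied to a single gene and ochre points the 27 tied to several, and 31 of the 44 lie within 0.25 of 0.

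The transcripts that changed in glial knockdown were followed in the 3 other comparisons, which have arrays of their own. The 451 rises had a median log2 fold change of 0.14 in ATM8 homozygotes, 0.08 with the Elav driver and 0.13 with the ElavC155 driver, against 0.00, -0.01 and 0.01 over all transcripts. They were higher in 68.7%, 63.9% and 69.6% of cases, against 50.6%, 46.9% and 51.3% of all transcripts. The 207 falls had medians of -0.06, -0.11 and -0.04 and were lower in 58.9%, 70.0% and 56.0% of cases, against 49.4%, 53.1% and 48.7% of all. Of the rises, 30 also rose and 6 fell in ATM8 homozygotes (where 1.59% of all transcripts changed), 44 rose and 1 fell with the Elav driver (1.62%), and 23 rose and 3 fell with the ElavC155 driver (0.504%). Of the falls, 0 rose and 4 fell in ATM8 homozygotes, 9 rose and 14 fell with the Elav driver, and 1 rose and 3 fell with the ElavC155 driver. The same directions were seen for the 130 rises that passed in all 4 fits leaving out 1 Repo array, with medians of 0.14, 0.14 and 0.24. Of the 43 such falls, 51.2%, 65.1% and 41.9% were lower, and with the ElavC155 driver their median was 0.04, above 0. The medians elsewhere were far smaller than the glial median of 0.95 for rises. The glial values of these transcripts were selected for passing the threshold, which tends to enlarge them by an amount that was not estimated. The gap between the 2 is therefore no measure of cell type.

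**Figure D5:**
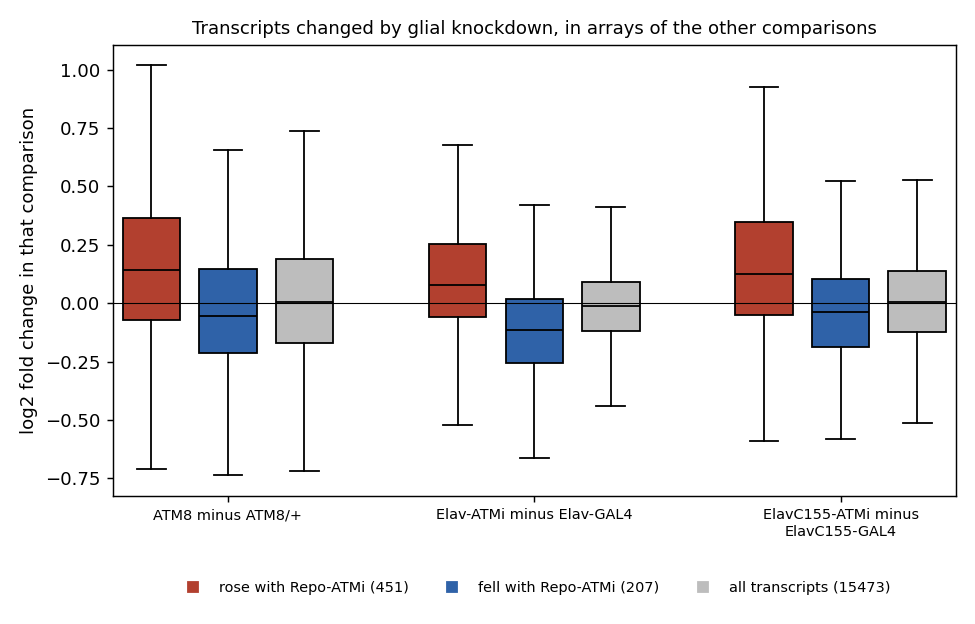
Log2 fold change (vertical axis) in the ATM8, Elav and ElavC155 comparisons (horizontal axis) of transcripts that rose with Repo-ATMi (red), fell with it (blue) and of all transcripts (grey). Boxes run between the quartiles with a line at the median, whiskers reach 1.5 times the length of the box, and points beyond are not drawn. The medians of the rises lie between 0.08 and 0.14.

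Where the glial effect departs from the others was tested directly, as a difference of effects. It differed from the Elav effect for 279 transcripts (1.8%), from the ElavC155 effect for 147 (0.95%) and from the ATM8 effect for 282 (1.82%). The glial effect was more positive than all 3 others for 54 transcripts, and 53 of them were among the 451 rises. It was more negative than all 3 for 22, all of them among the 207 falls. Of the 53, all passed the threshold for a rise in every fit that left out 1 Repo array, as did 20 of the 22 for a fall. The Repo arrays enter both tests and also the fits that left out 1 of them, so none of these results stands apart from the others. The medians and SDs of the Repo and ATM8 arrays differed from those of the Elav and ElavC155 arrays (medians of 10.45 to 10.63 in the first 8 arrays and 10.84 to 10.93 in the other 12). A difference between the glial and a neuronal effect cannot be told apart from a difference between these sets of arrays or between strains. Without Repo-GAL4 replicate 1 or 2 the number differing from Elav was 161 or 134, from ElavC155 74 or 71, and from ATM8 169 or 148. Without Repo-ATMi replicate 1 the number differing from Elav was 143. Leaving out ElavC155-ATMi replicate 1 or 2 brought the number differing from ElavC155 to 82 or 94, and leaving out ElavC155-GAL4 replicate 2 brought it to 80.

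Which of the 2 Repo genotypes departed from the other strains was described with the level in ATM8/+ samples, whose arrays have a similar distribution. For 41 of the 52 rises of at least 4-fold, the Repo-ATMi mean lay farther from the ATM8/+ mean than the Repo-GAL4 mean did. The median difference from the ATM8/+ mean, taken with its sign, was 2.35 for Repo-ATMi and -0.03 for Repo-GAL4. Positive and negative differences can cancel in such a median. For the 11 falls of at least 4-fold the split was 5 and 6, with median signed differences of -1.22 for Repo-ATMi and 1.24 for Repo-GAL4. The Elav-GAL4 and ElavC155-GAL4 arrays have another distribution. Set against Elav-GAL4 samples the splits were 41 and 11 for the large rises and 5 and 6 for the large falls. Against ElavC155-GAL4 samples they were 31 and 21 for the large rises and 4 and 7 for the large falls. Over all 451 rises the split was 227 and 224 against ATM8/+ samples, 160 and 291 against Elav-GAL4 samples and 150 and 301 against ElavC155-GAL4 samples. Over all 207 falls it was 110 and 97, 174 and 33, and 161 and 46, in the same order. The counts for all rises and all falls therefore depended on the samples they were set against, and strain and set of arrays cannot be told apart in this. No strain here is a control without a driver in the w1118 background.

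Among the falls, 5 transcripts were described further, picked after their values were seen. They are falls of at least 4-fold that rose with the Elav driver. Their log2 fold changes ran from -3.44 to -2.14 with glial knockdown and from 1.88 to 3.45 with the Elav driver. The median level of the 5 was 5.99 and 7.41 with glial knockdown (Repo-ATMi), against 9.47 and 10.19 with the driver alone (Repo-GAL4). It was 9.93, 9.45, 6.54 and 9.66 in the Elav-ATMi samples, against 5.40 to 5.75 in the 4 Elav-GAL4 samples. In the ATM8, ATM8/+, ElavC155-ATMi and ElavC155-GAL4 arrays it was 5.65 to 6.22, although single members reached up to 10.35 there. High levels were thus found in 2 control samples of one driver and in 3 of 4 knockdown samples of another. None of the 5 passed in all 4 fits that left out 1 Repo array (0 in limma, with all 5 past the threshold in the fit of every array).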

How the data were processed

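Total RNA of fly heads was labelled with Cy3 by NimbleGen and hybridised to single-colour arrays, 1 per sample, as the labels' protocols state. The authors deposited 1 RMA level per transcript and array. RMA comes from the submitters' processing notes, which give no version, and the range of the values shows a log2 scale. Not given in the sources used here: the annotation release, any probe filter, and whether the 20 arrays were normalized jointly. The precision is limited by the number of arrays. Groups follow the sample titles. The labels call replicates biological without saying how they were made, so a p-value reflects only the spread among these samples, which may be technical.

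Each transcript was tested two-sided in R 4.3.3 by the moderated test of limma 3.58.1, with a mean per genotype over all 20 arrays (12 residual and 3.79 prior degrees of freedom). Benjamini-Hochberg adjustment ran over all 15473 transcripts, and "changed", "rose" and "fell" mean an adjusted p under 0.05. Differences of effects were contrasts in the same fit. The main fit held no replicate block and so used no pairing of samples, and a block is among the alternatives below. Deviations from the group means of same-numbered samples correlated at 0.119 to 0.243 in the 4 Elav pairs, which may therefore be paired. The correlation was 0.509 for ElavC155, 0.262 for ATM8 and -0.14 for Repo, where 2 pairs each do not settle it. No label gives a shared source. The procedure was tested on simulated data. The planned tests of gene lists and averages per gene could not be made, since no list entry had a row. Transcripts were tied to genes through a RefSeq table of Release 6, from which no coordinates were taken. The rule for named transcripts ranked the 12 largest rises and falls past the threshold with groups that do not overlap. As these have no gene name, 2 of each are printed, and every transcript tied to a gene was kept whatever its value. The members and lists were chosen with earlier results of these data known. Alternatives were other sets of arrays, median centring, quantile normalization, leaving out the dimmest 25%, trend and robust variance priors, array weights, a replicate block, a 1.5-fold minimum and leaving out each array.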

Additional observations from a re-analysis of the deposited data

Results flagged for a closer look

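The following effects differed from those of another comparison in a direct test of the difference (limma, adjusted p under 0.05). FBtr0070073 rose more with glial knockdown than in ATM8 homozygotes, by 7.58 on the log2 scale. FBtr0081033 exceeded the ATM8 effect by 4.81, the Elav effect by 5.20 and the ElavC155 effect by 5.39. FBtr0079509 was more negative than the ATM8 effect (-3.26), the Elav effect (-3.25) and the ElavC155 effect (-3.88). FBtr0076983 differed from the Elav effect by -6.89, with opposite directions in the 2 comparisons.

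Of the 44 transcripts tied to genes, 1 differed from another comparison: that of CG17325 and CG42305, by 0.96 ± 0.22 from the ElavC155 effect (limma adjusted p = 0.047). Its log2 fold change was 0.31 ± 0.15 with glial knockdown and -0.65 ± 0.15 with the ElavC155 driver, and neither passed alone (adjusted p = 0.32 and 0.086). Over all transcripts, 279 differed between the glial and the Elav effect, 147 between the glial and the ElavC155 effect and 282 between the glial and the ATM8 effect.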

How the results depend on the processing

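The number of transcripts changed by glial knockdown, 658, was 262 to 486 when 1 Repo array was left out, 1118 with array weights, and between 440 and 736 in the fit of the 4 Repo arrays, in that of 8 arrays, after median centring, after quantile normalization, without the dimmest 25%, with trend or robust priors and with a 1.5-fold minimum. Similar counts did not mean the same transcripts. Of the 658, 317 also passed in the fit of the 4 Repo arrays and 417 in that of the 8 Repo and ATM8 arrays. Rises made up 63.3% to 76.7% of the changes over all of these settings. The number differing from the Elav effect was 134 to 318 with 1 array left out and 183 when only the compared arrays entered. The number differing from the ElavC155 effect was 71 to 166 with 1 array left out and 351 with array weights, and dropping ElavC155-GAL4 replicate 1 gave 85 in the positive and 81 in the negative direction. The number differing from the ATM8 effect was 148 to 209 with 1 array left out. With the replicate number as a block 779 transcripts changed with glial knockdown, 541 of them among the 658. The block gave 318 for the difference from the Elav effect, 171 from the ElavC155 effect and 326 from the ATM8 effect, which kept 224 of the 279, 111 of the 147 and 229 of the 282. A block with crossed Repo numbers, added after seeing the data, gave 875, 348, 186 and 365. Of the values of the 44 transcripts tied to genes under these settings, 550 kept their side of the threshold within 1 standard error, 18 moved farther and 3 passed, all 3 of the transcript of CG32573 and CG42512. The causes were not tested. The number of arrays limits what could be seen.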

Other observations

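Some rises were next to each other in identifier number. Of the 451 rises, 389 had the next number in the table, and that transcript also rose in 36 cases (9.25%), against 2.88% after any transcript. Of the 207 falls, 165 had the next number in the table, which also fell in 6 cases (3.64%, against 1.33%) and rose in 6 (3.64%). The files do not say whether such neighbours belong to the same gene or share probes, and their part in the counts was not tested.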
